A study of Zea mays with 58 samples.

Results

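The genes described here are 67 maize root genes whose level lay lower without nitrogen by the end of a 120 min time course and near its starting level with nitrogen. They were chosen by a rule on measured values from the 46335 features of the count table. L is the mean over the libraries of a group of log2(CPM + 1), where CPM is the count times 1000000 over the library total. A member had L of 3 or more in some group. Its mean L at 90 and 120 min without nitrogen was at least 0.8 below time 0, and its mean L at 90 and 120 min with nitrogen was within 0.5 of that at 5 min. Its L with nitrogen was on average at least 0.8 above that without nitrogen at 60, 90 and 120 min. Genes that the authors' network lists as regulators were left out, and 4 of these met every other condition.

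The libraries come from roots of B73, a maize inbred line, from seedlings aged 10 days. In all groups the endosperm had been cut off and the plants starved of nitrogen for 2 days. N roots then received 20 mM KNO3 together with 20 mM NH4NO3, a share of the nitrogen being 15N, and noN roots received 20 mM KCl. Both were sampled at 9 times between 5 and 120 min, and a group of time 0 is labelled noN. No KCl concentration is recorded for time 0. Changes of noN roots from time 0 can therefore include the change of medium, which cannot be told apart from time. There are 19 groups, with 4 replicates in noN at 120 min and 3 in each other group, and 3 seedlings were pooled per replicate. The media also differ in chloride and total salt, which the design does not separate from nitrogen.

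Nitrate is taken up by root transporters, reduced to ammonium and built into glutamine, and it also acts as a signal that changes transcription within minutes. Ammonium enters the same assimilation path and has signals of its own. The level of an mRNA is set by its synthesis and by its decay, and a count does not separate them. In whole roots a lower level can also mean fewer cells of a type as well as less RNA per cell, and these cannot be told apart.

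All 67 members are gene models of the AGPv4 annotation. The count table gives IDs without names, and 0 of the 67 matched the reference table of RefSeq names, which is of another assembly. No member is therefore given a name or a role, root marker genes could not be looked up, and 4 IDs are described in full. Library totals ran from 1978039 to 3790442 counts, and the median member had a mean of 45.9 counts per library. The 21 noN libraries of 0 to 45 min had more of their counts on long genes than all others. Their count-weighted mean log2 exon length was 11.01 to 11.11, against 10.92 to 10.997 in the 18 N libraries of 5 to 45 min, 10.98 to 10.99 in the 9 later N libraries and 10.97 to 10.999 in the 10 later noN libraries. The labels give no batch.

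By the values that chose them, the members were a median of 1.48 below time 0 in noN roots at 90 and 120 min on the L scale, as the median change was -1.48 with an interquartile range of -1.94 to -1.06. The deepest change was -3.22. In N roots the matching median change from 5 min was 0.12 (-0.19 to 0.31). The N minus noN difference over 60, 90 and 120 min had a median of 1.01 and reached 2.52. These numbers describe the choice and test nothing. At the limits of the rule, the member nearest to the noN limit was at -0.808 and the nearest excluded gene at -0.778. For the N minus noN limit these values were 0.807 and 0.792, and for the upper limit on the N change 0.476 and 0.504. The rule's limits on level and on the noN fall alone were met by 1396 features in all, of which the members are 4.80%. Of the others, 474 were also lower in N roots by more than 0.5, 130 were higher in N roots by more than 0.5, 721 were within 0.5 in N roots but differed by less than 0.8 between the media, and 4 were the regulators.

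In noN roots the median level was lower than at time 0 at each later time, and its course was not steady. The median member stood, relative to time 0, at -0.20 (5 min), -0.57 (10 min), -0.92 (15 min), -0.71 (20 min), -0.72 (30 min), -1.12 (45 min), -1.19 (60 min), -1.73 (90 min) and -1.32 (120 min). At 45 min the median member had covered 85.0% of its late change (interquartile range 48.7% to 116%). The lowest of the 10 noN groups was that of 90 min for 35 members, 120 min for 12, 45 min for 11, 15 min for 5 and 60 min for 4. The highest was time 0 for 45 members. Over all features with L of 3 or more in some group noN roots had a median change of 0.19 by 45 min and -0.02 by 90 min. Per library, the median change of the members was -1.31 to -0.93 in the 45 min group and -1.96 to -1.41 in the 90 min group.

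N roots were not level between their ends, which the rule compares. The median member stood, relative to time 0 of noN, at -0.22 (5 min), -0.24 (10 min), -0.36 (15 min), -0.40 (20 min), -0.68 (30 min), -0.68 (45 min), -0.47 (60 min), -0.20 (90 min) and -0.03 (120 min). The lowest of the 9 N groups was that of 30 min for 19 members and that of 60 min for 15, and the highest was 120 min for 23. The return at 90 and 120 min relative to 5 min is part of the rule. The level at 60 min enters the rule through the N minus noN difference. The levels at 10 to 45 min enter it only through its condition on level. Libraries within an N group differed widely at some times: the 3 medians at 10 min were -0.50, -0.45 and 0.22, and those at 60 min were -0.82, -0.67 and -0.003. The spread of L between replicates was 0.38 for the median member and group (SD).

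**Figure D1:**
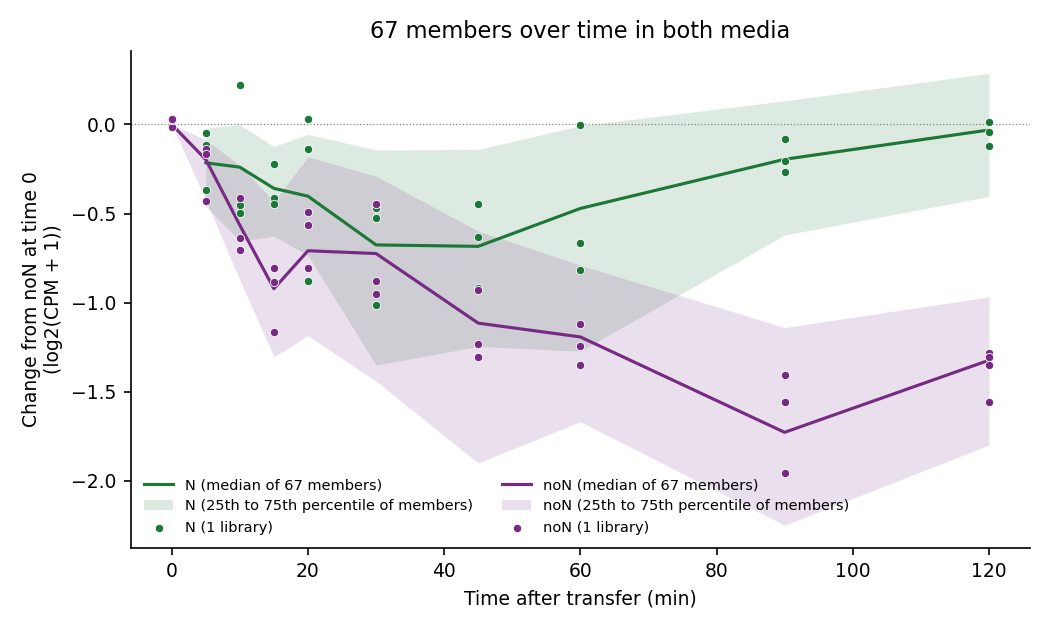
Change of the 67 members from noN at time 0, in log2(CPM + 1), against time after transfer in min. Lines are medians over the members, bands their 25th to 75th percentiles and points the median of the members in 1 library, with N roots in green and noN roots in purple. The N median reaches -0.68 at 30 and 45 min and -0.03 at 120 min, while the noN median reaches -1.73 at 90 min.

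Summed over the members, N roots had 4982 ± 613 CPM (SD, n = 3) at 120 min, against 2053 ± 256 CPM (SD, n = 4) in noN roots. At 45 min the sums were 3546 ± 646 CPM in N roots and 1987 ± 94.1 CPM in noN roots (SD, n = 3 each). At time 0 the sum was 5318 ± 44.6 CPM (SD, n = 3). The N range of 2858 to 4139 CPM at 45 min lay above the noN range of 1884 to 2067 CPM. These sums are led by the most counted members.

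**Figure D2:**
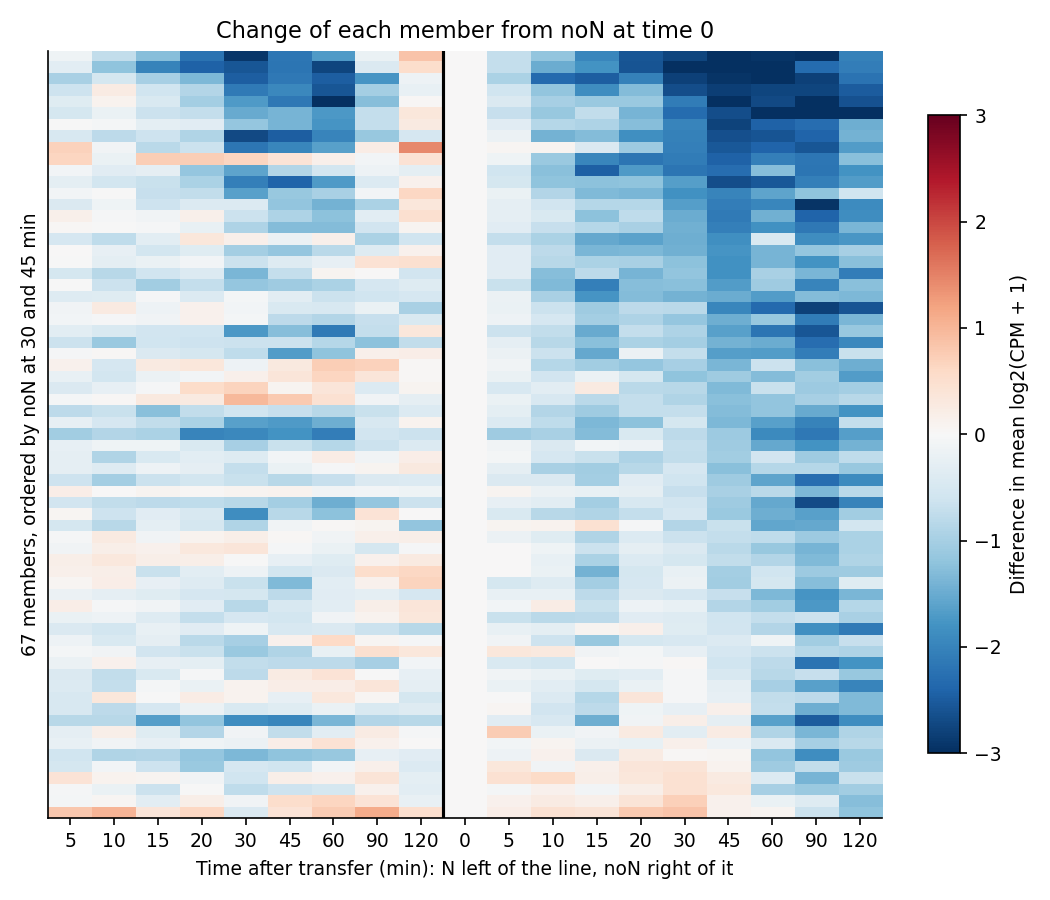
Change of each of the 67 members from noN at time 0, as a difference in mean log2(CPM + 1), for the N groups left of the line and the noN groups right of it, with times in min. Rows are ordered by noN at 30 and 45 min, colours end at -3 and 3, and many of the upper rows are low in N at 30 to 60 min too. In the noN columns of 90 and 120 min, whose mean the rule used, all 67 members lie below time 0.

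The changes in the rule do not use the libraries of 10 to 45 min or noN at 5 min, which enter it only through the condition of L of 3 or more in some group. With any 1 of those libraries left out, all 67 members still met the rule. In noN roots, on these libraries, 31 of the 67 members fell and 0 rose between 5 and 10 min and 30 and 45 min (edgeR quasi-likelihood test, adjusted p of 0.05). Over all 18872 features tested, 4.49% fell and 5.44% rose in that contrast. The log2 fold change of the median member was -0.69 (interquartile range -1.14 to -0.27), against 0.01 over all features tested. The 31 had log2 fold changes between -4.30 and -0.49. All 67 members passed the filter on low counts. Of the 1329 other features that met the same limit on the late noN fall, 214 fell and 69 rose, with a median of -0.11. These features were not matched to the members in the depth of their late fall. Without the 45 min groups, an alternative chosen after seeing the data, 17 members fell and 0 rose, where 1.24% of all features fell and 1.76% rose. Removing the length trend of each library left 28 that fell. With library totals in place of TMM scaling 27 fell, and over all features 8.88% rose and 3.27% fell.

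In N roots, 15 members fell and 3 rose between 10 min and 30 and 45 min (edgeR, adjusted p of 0.05). Over all features tested 3.95% fell and 5.49% rose. The median member had a log2 fold change of -0.39 (interquartile range -1.02 to 0.13), against -0.02 over all features tested. The 15 ranged from -3.09 to -0.74 and the 3 from 0.88 to 0.89. The rule set the N level at 90 and 120 min against 5 min by choice, and the 15 members fell in N roots at times between. Against time 0 of noN, 10 members were at least 0.8 lower in L in N roots at 90 min and 4 at 120 min. The number of 15 rests in part on 1 library, replicate 1 of N at 10 min: without it 6 members fell. Without the 45 min groups 10 fell and 1 rose, where 1.35% of all features fell and 3.48% rose.

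The change was called in both media for 13 members, down in both for 11 and down in noN but up in N for 2. For 18 members it was called down in noN alone, for 4 down in N alone and for 1 up in N alone, while 31 were called in neither. The test of the difference between the media, N minus noN for 30 and 45 min over 10 min, passed for 2 members, both positive, and for 0 negative (edgeR, adjusted p of 0.05). Over all features tested 0.874% were positive and 0.18% negative. At an unadjusted p of 0.05 the number of members was 14 of 67, and that of all features tested was 2721 of 18872. Calls in 1 medium alone are thus not shown to be differences between the media for the other 65. The median difference was 0.09 (interquartile range -0.38 to 0.69). With library totals 0.673% of all features were positive and 0.588% negative. With no filter on low counts 4 members passed, all positive, where 0.512% of all features were positive. DESeq2 gave an adjusted p to 54 of the 67 members, of which 4 passed, where 1.83% of all features were positive.

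For the 11 members that fell in both media, the median change from time 0 in N roots was -0.08 (5 min), -1.64 (30 min), -1.40 (45 min), -1.71 (60 min), -0.57 (90 min) and 0.27 (120 min). In noN roots it was -0.34 (5 min), -2.03 (30 min), -2.65 (45 min), -2.43 (60 min), -2.40 (90 min) and -1.68 (120 min). For the 18 called down in noN alone, the median over the members was between -0.41 and -0.07 in N roots of 5, 10, 30, 45, 60, 90 and 120 min. In noN roots of 45 min their median was -1.45. Single members of the 18 differed from these medians. The 31 called in neither medium had a median L of 4.49 at time 0, against 5.11 for the 11 and 6.22 for the 18. Their noN medians were -0.59 (45 min), -0.97 (60 min) and -1.39 (90 min), and their N median was -0.60 in the 45 min group. These sets were formed from the calls and are described without a test.

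**Figure D3:**
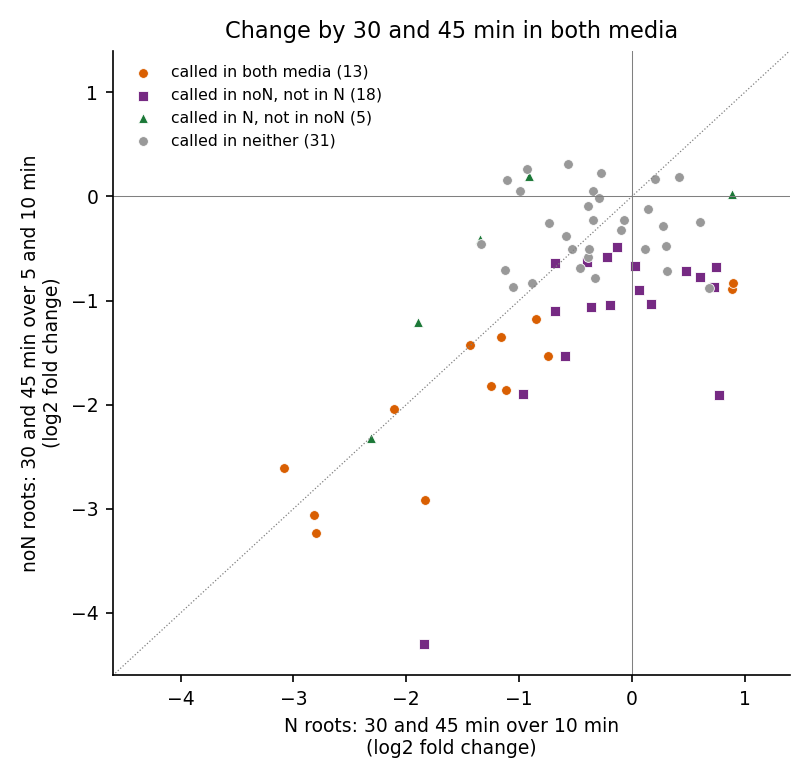
Log2 fold change of each of the 67 members by 30 and 45 min, over 10 min in N roots (x axis) and over 5 and 10 min in noN roots (y axis). Colours and shapes give the media in which the change was called at an edgeR adjusted p of 0.05, and the dotted line marks equal changes. The members called in both media are down in both, apart from 2 at the right, and 31 members are called in neither.

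Averaged over 10, 15, 20, 30 and 45 min, which the rule used only in its condition on level, 36 members were higher in N roots than in noN roots and 4 were lower (edgeR, adjusted p of 0.05). Over all features tested 29.4% were higher and 30.6% lower. The log2 fold change of the median member was 0.62 (interquartile range 0.16 to 0.98), against -0.03 over all features. The 36 ranged from 0.38 to 2.83 and the 4 from -0.84 to -0.50. Among the other features that met the limit on the late noN fall, 372 of 1329 were higher and 475 lower, with a median of -0.07. This contrast compares the 2 kinds of library that differ in gene length. With the length trend of each library removed, 33 members were higher and 6 lower, with a median log2 fold change of 0.44. With library totals in place of TMM scaling 32 were higher and 5 lower, while over all features the split turned to 17.5% higher and 49.2% lower and the median of all features moved to -0.25.

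Member by member, the media separated in part of the group at each of these times. Every N library lay above every noN library in 10 of the 67 members at 10 min, where 9.65% of the features with L of 3 or more in some group did so. The number was 24 at 15 min (14.2% of those features), 22 at 20 min (13.1%), 18 at 30 min (10.9%) and 23 at 45 min (12.3%). Every N library lay below every noN library in 3 members at 10 min and 2 at 15 min. At 20, 30 and 45 min such members numbered 4, 7 and 4. The share of all features in that direction was not counted. The median N minus noN difference in L of the members was 0.36 (10 min), 0.56 (15 min), 0.28 (20 min), 0.09 (30 min) and 0.58 (45 min). Over all features with L of 3 or more in some group it was -0.16, -0.17, -0.25, -0.26 and -0.28 at these times. From 10 min on, the median difference of the members was smallest at 30 min, one of the times of the low in N roots. At 60, 90 and 120 min, which the rule used, the medians of the members were 0.66, 1.48 and 1.21.

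A separate contrast asked whether noN roots stood apart at 15 min. For 15 min against the mean of 10 and 20 min, 0 members were higher and 0 lower in edgeR, with 10 at an unadjusted p of 0.05. Over all features tested 3.82% were higher and 0.699% lower, with 3176 of 18872 at an unadjusted p of 0.05. DESeq2 also called 0, and limma on the authors' quantile normalized values called 0 higher and 1 lower. The median member had a log2 fold change of -0.21, and 49 of 67 lay below 0. The other features that met the limit on the late noN fall had a median of -0.25, with 1084 of 1329 below 0. All features tested had a median of -0.03, with 10138 of 18872 below 0.

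Zm00001d036839 (AGPv4 chromosome 6, 103351537 to 103352681, plus strand, exon length 1001 bases) fell most clearly in noN roots by the p of that contrast. In noN roots its 3 libraries had 502, 578 and 660.3 CPM (5 min), 343, 431 and 435 CPM (10 min), 183, 184 and 189.7 CPM (30 min) and 92.7, 111 and 116 CPM (45 min). Every library of 30 and 45 min lay below every one of 5 and 10 min. Its noN change was -1.86 (SE 0.18, edgeR adjusted p = 8.37e-10). In N roots it had 593, 646 and 886 CPM (10 min), 245, 307 and 457 CPM (30 min), 189.6 to 255 CPM (60 min) and 839, 843 and 974 CPM (120 min). The N libraries of 120 min thus lay above all noN libraries of time 0, which had 654 to 798 CPM. The noN libraries of 120 min had 232 to 343 CPM, above those of 45 min. Its N change by 30 and 45 min was -1.11 (SE 0.20, edgeR adjusted p = 0.00014), and the difference between the media, with both changes taken over 10 min alone, did not pass the test (0.45, SE 0.30, edgeR adjusted p = 0.522).

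Zm00001d032024 (chromosome 1, 209721047 to 209722443, plus strand, exon length 1216 bases) had the next smallest p of that contrast. In noN roots it had 180.2, 215 and 251 CPM (5 min), 111, 131 and 163 CPM (10 min), 62.8, 68.7 and 76.1 CPM (30 min) and 45.4, 53.7 and 92.1 CPM (45 min). The later and earlier noN libraries did not overlap, and its noN change was -1.43 (SE 0.19, edgeR adjusted p = 7.03e-07). In N roots it had 134, 269.7 and 389 CPM (10 min), 58.5, 80.9 and 99.3 CPM (30 min) and 312, 345 and 498 CPM (120 min). The N change of -1.44 (SE 0.21, edgeR adjusted p = 3.45e-06) stands beside the noN change, and the difference between the media, with both changes over 10 min alone, did not pass the test (-0.37, SE 0.31, edgeR adjusted p = 0.651). Leaving out replicate 1 of the N group of 10 min made that difference 0.00771, and leaving out its replicate 3 made it -0.69. In the 30 min groups the media overlapped. The noN libraries of 120 min had 134 to 184 CPM.

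Zm00001d047290 (chromosome 9, 125663367 to 125665840, plus strand, exon length 2474 bases) had the smallest p of all members for the mean N effect at 10 to 45 min. In N roots it had 42.1, 46.3 and 61.4 CPM (10 min), 74.7, 81.0 and 138 CPM (30 min), 79.1, 81.8 and 86.6 CPM (45 min) and 36.7, 37.7 and 44.1 CPM (120 min). In noN roots it had 32.1, 34.3 and 34.6 CPM (10 min), 24.9 to 25.7 CPM (30 min), 16.5, 20.8 and 21.4 CPM (45 min) and 19.7 to 33.9 CPM (120 min). The media did not overlap at any of these 4 times, and the distance was widest at 30 and 45 min. The mean N effect was 1.57 (SE 0.08, edgeR adjusted p = 3.66e-21). It is 1 of the 2 members that changed in opposite directions, up in N by 0.89 (SE 0.15, edgeR adjusted p = 3.46e-05) and down in noN by a change of -0.83 (SE 0.13, edgeR adjusted p = 1.41e-05). With both changes taken over 10 min alone, the difference between the media was 1.54 (SE 0.22, edgeR adjusted p = 6.44e-06).

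Zm00001d012069 (chromosome 8, 167595112 to 167595978, plus strand, exon length 867 bases) had the next smallest p for the mean N effect, the largest such effect among the members. In N roots it had 32.7, 43.9 and 50.7 CPM (15 min) and 23.9, 38.6 and 39.1 CPM (45 min). In noN roots it had 4.11, 5.44 and 7.83 CPM (15 min) and 3.47, 3.86 and 4.13 CPM (45 min), after 18.4 to 30.2 CPM at time 0. The media did not overlap at either time. The mean N effect was 2.83 (SE 0.23, edgeR adjusted p = 3.73e-14), and the noN change by 30 and 45 min was -1.91 (SE 0.40, edgeR adjusted p = 0.000973). Without the 45 min groups that change was -1.61 and no longer passed the test (edgeR adjusted p = 0.0637). The difference between the media over 10 min alone, 2.09 (SE 0.62, edgeR adjusted p = 0.0793), missed the threshold. It passed with no filter on low counts (edgeR adjusted p = 0.0446), in DESeq2 (adjusted p = 0.034) and when replicate 1 of the N group of 10 min was left out (edgeR adjusted p = 0.0394). With a replicate block the difference passed too, as given in the last section, and it passed under no other alternative. The N change by 30 and 45 min was not called (0.77, SE 0.39, edgeR adjusted p = 0.228). Its base, N at 10 min with 15.0, 18.3 and 34.6 CPM, had the lowest mean of the N groups for this gene. Replicates of this gene differed widely in N roots, from 28.1 to 78.0 CPM at 20 min.

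**Figure D4:**
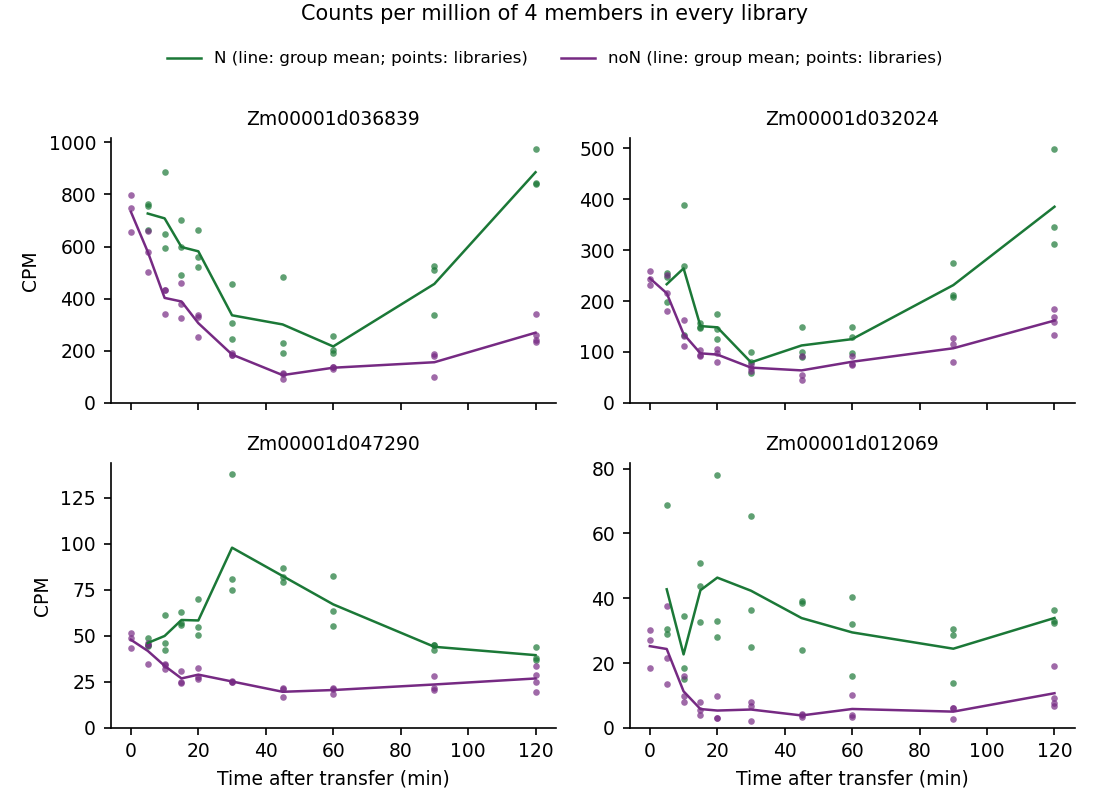
CPM of 4 members in every library against time after transfer in min, with lines for group means, N roots in green and noN roots in purple. The 2 upper genes dip and return in N roots, to 839 to 974 CPM and 312 to 498 CPM by 120 min. In noN roots their group means also rose between 45 and 120 min, from 107 to 269 CPM and from 63.7 to 162 CPM. The 2 lower genes are higher in N than in noN roots at 15 and 45 min.

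Gene structure, which the rule did not use, is given by exon blocks and exon length. Exon blocks are the exon intervals of a gene with overlaps merged. Of the 67 members 29 (43.3%) have 1 exon block. The number is 147 of 1329 (11.1%) among the other features that met the limit on the late noN fall and 1724 of 18872 (9.14%) among all features tested. Their exon lengths ran from 174 to 5185 bases, with a median of 1333 bases (interquartile range 738 to 1772), against 2229 bases among the other features of that kind and 2062 bases among all tested. Their mean L over all groups was similar to that of all tested, with medians of 4.06 and 4.40. Inside the group, 15 of the 34 members at or under the median exon length and 16 of the 33 longer ones fell in noN by 30 and 45 min. In N roots 10 of the shorter and 5 of the longer members fell, and 16 of the shorter and 20 of the longer were higher in the mean N effect. Library makeup by gene length, given above, differs between the groups, and its part in the late changes was not tested. No set of genes was tested for these features.

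**Figure D5:**
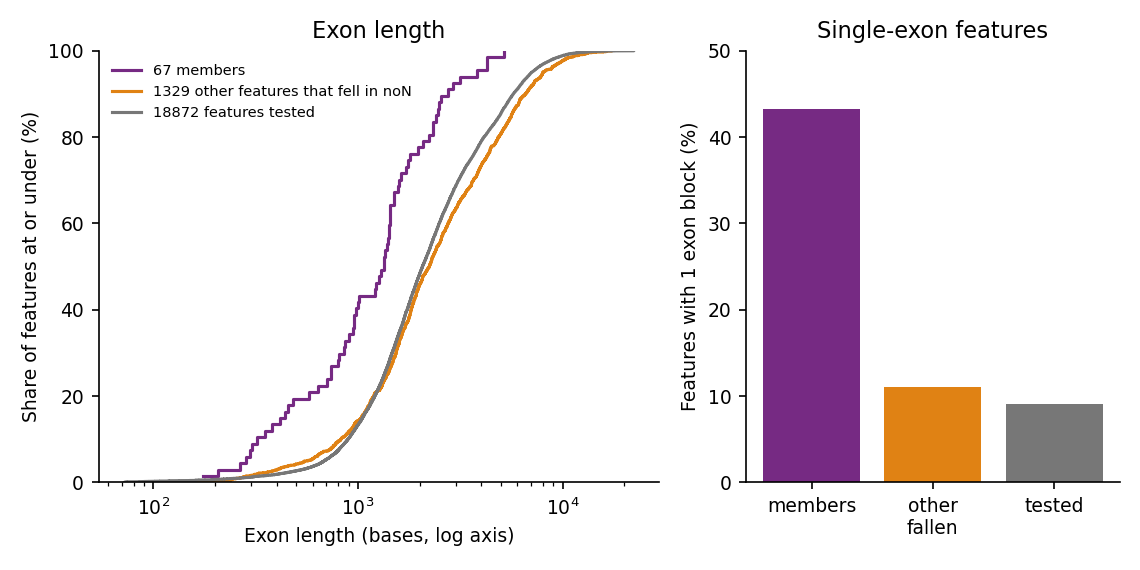
Left, the share in percent of features at or under each exon length in bases (log axis), for the 67 members, the 1329 other features that met the limit on the late noN fall and the 18872 features tested. Right, the share in percent of features with 1 exon block in the same sets, which is 43.3%, 11.1% and 9.14%.

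The members are scattered over the genome. Chromosome 3 holds 12 of them, 0.586% of its features tested, and chromosome 1 holds 5, 0.17% of its features tested, which are the highest and the lowest such shares. No 2 members are neighbours, and 0 pairs have 5 or fewer annotated features between them. The plus strand carries 34 of the 67.

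In the authors' deposited network table, which pairs 196 regulators with 2294 targets by a weight, 14 of the 67 members (20.9%) are targets. All 2294 targets were among the 18872 features tested (12.2%), and 15.8% of the other features that met the limit on the late noN fall are targets. In the authors' deposited table the highest weight of a member with any regulator had a median of 0.676, against 0.693 over all targets, and the largest was 7.41. The highest-weight regulators of the 14 are 11 different genes. In 10 of these 14 pairs the regulator had a lower L in N roots than in noN roots over 60 to 120 min and in 4 a higher one, against 131 with a lower and 65 with a higher L among all 196 regulators. The 14 had a median late noN change of -2.04 in L, against -1.36 for the 53 members that are not targets, and 10 of the 14 against 21 of the 53 fell in noN by 30 and 45 min. The 14 also had a higher level, with a median of the mean L of 4.84 against 4.05 for the 53, and neither difference was tested. The sources used here do not say how the weights were computed or from which libraries, so they are not taken as independent evidence.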

How the data were processed

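Roots were profiled by 3' mRNA sequencing with unique molecular identifiers, per the labels' protocols. STAR 2.7.6a, featureCounts 2.0.1, fastp 0.21.0 and UMI-tools 1.1.1 are named in the submitters' processing notes. The authors' deposited counts are whole numbers of deduplicated sense-strand reads per AGPv4 gene, per the file headers, and reads with several alignments were not set to be counted, so near-identical copies can lose reads; such copies were not looked for here. The authors' deposited second table holds a score, quantile normalized expression rounded to whole numbers, for 57 of the 58 libraries. It leaves out replicate 4 of noN at 120 min. The authors' deposited network weight is a score of at least 0.

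The members and lists were chosen with earlier results of these data known. Counts were filtered with filterByExpr (minimum count 10, minimum total 15), scaled by TMM and fitted to the 58 libraries with 1 mean a group by edgeR 4.0.16 under R 4.3.3. P-values were adjusted by Benjamini-Hochberg over 18872 features. Contrasts used groups that enter the rule only through its condition on level. CPM and L use library totals. Named IDs are the 2 members with the smallest p that fell in noN by 30 and 45 min and the 2 with the smallest p that were higher in the mean N effect, since no names matched. The 3 gene lists and the root markers are lists of symbols. They could not be looked up among the members, since 0 members matched a name. No 2 libraries of a group agreed within counting noise (chi-square per degree of freedom of at least 2.07 in 60 pairs). P-values measure the spread between biological replicates. Alternatives were other scalings, filters, DESeq2 1.42.0, limma 3.58.1, the replicate block, removal of the length trend, fits on fewer groups and leaving out libraries.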

Additional observations from a re-analysis of the deposited data

Results flagged for a closer look

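The change by 30 and 45 min over 10 min differed between N and noN roots in 2 members by the test of the difference itself (edgeR, adjusted p of 0.05). Zm00001d047290 had a difference of 1.54 on the log2 scale. The other, on chromosome 3, had a difference of 1.55 (SE 0.36, edgeR adjusted p = 0.0176), with both changes over 10 min alone. Its N change over 10 min was 0.89 and its noN change over 5 and 10 min was -0.89. In noN at 120 min, the group with 4 libraries, 6 values (the median and the sum of the members and the 4 IDs) were examined by Dixon's criterion, the gap to the nearest library against the range of the group, and 0 passed it. The library medians of the members there were -1.28, -1.31, -1.35 and, in replicate 4, -1.56, and without replicate 4 the rule kept 55 of the 67 members.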

How the results depend on the processing

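Of 109 counts under the alternatives that leave out no library, 102 were within 1.5 times the reported count. The others were as follows. Without the 45 min groups 17 members fell in noN, 1 rose in N and 1 passed the difference of the changes. DESeq2 and no filter on low counts each gave 4 for that difference. For noN at 15 min, members chosen on TMM scaled counts gave 1 higher and limma 1 lower. Leaving out 1 of 33 libraries in turn gave 24 to 30 members that fell and 0 that rose in noN, 6 to 17 that fell and 1 to 4 that rose in N (1 without replicate 3 of the N group of 10 min), 33 to 40 higher and 4 lower in the mean N effect, 1 to 5 positive and 0 negative differences (5 without replicate 1 of the N group of 10 min, 1 without its replicate 2 or without replicate 1 of the noN group of 10 min), and 0 to 1 higher and 0 to 2 lower at 15 min, the highest of both without replicate 2 of noN at 15 min. The difference of Zm00001d032024, -0.37, ran from -0.692 to 0.00771, the second without replicate 1 of the N group of 10 min, and it passed the test in none of these. The rule itself gave 56 to 97 members with 1 of the 58 libraries left out (56 without replicate 2 of the N group of 60 min, 97 without replicate 1 of the noN group of 90 min), at least 54 of them shared, and 69 with 58 shared on TMM scaled counts. Over all features, library totals gave 3300 higher and 9292 lower in the mean N effect, against 5551 and 5781, and 1675 that rose in noN, against 1027.

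Same-numbered N and noN replicates of a time correlated at -0.288 to 0.255 in their deviations from the group means. Of the 27 pairs 7 were over 0.1, and the median was 0.0128. These values do not show a pairing by number and cannot exclude one. With a replicate block 31 members fell in noN, 16 fell and 3 rose in N, 37 were higher and 4 lower in the mean N effect and 3 passed the difference, Zm00001d012069 among them (2.05, edgeR adjusted p = 0.0449). Depth limits the low members: 22 had a mean under 10 counts per library in noN at 90 min, and 11 had a count of 0 in some library.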
